A study of Mus musculus with 9 samples.

Results

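This comparison sets 3 cultures of an Eµ-Myc lymphoma that received 2.5 µM RG6146 for 2 h beside 3 cultures that received DMSO, the solvent, for the same time: 6 of the 9 libraries of the series, taken by their treatment label alone. The remaining 3 libraries are cultures given 1 µM JQ1. All 9 come from clone 4242, a B-cell lymphoma grown in vitro from mice in which an immunoglobulin heavy chain enhancer drives a Myc transgene, so DMSO and RG6146 cells alike carry that transgene and the replicates are cultures of a single clone. RNA was read by 3′ mRNA sequencing, in which a transcript gives reads near its polyadenylated end whatever its length.

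RG6146 and JQ1 are inhibitors of the BET proteins, a family of chromatin readers. BET proteins dock on acetylated histones through paired bromodomains and help paused RNA polymerase II to enter productive elongation, in part through the kinase P-TEFb. In B-lineage cells they are densely bound at the enhancers of cell identity genes, and Hexim1, which encodes an inhibitor of P-TEFb, is widely used as a transcript that rises when BET proteins are displaced.

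The 6 libraries held 3410161 to 5003725 gene counts under DMSO and 3947240 to 4609612 under RG6146. Levels are given as TMM CPM, counts scaled to a common library total and then by edgeR's trimmed mean of M values. A gene is said to have risen or fallen only where its adjusted p was below 0.05 over all 11002 tested genes. Errors after ± are standard errors of the log2 fold change unless SD is written. The transcript used to check the treatment, Hexim1 (chromosome 11, 103116231 to 103119725 on mm10), stood at 137, 128 and 139 CPM in the DMSO libraries and at 374, 376 and 362 CPM in the RG6146 libraries, a log2 fold change of 1.46 ± 0.07. All RG6146 libraries lay far above all DMSO libraries. Of the 13 genes listed as B lineage markers, all were detected. Their summed level was 1541 to 1766 CPM under DMSO and 1071 to 1224 CPM under RG6146 (CPM without TMM here and for the next sums). Markers of myeloid cells and their granules summed to 183, 808 and 393 CPM in the 3 DMSO libraries and to 95.5, 143 and 127 CPM under RG6146 (exact two-sided permutation p = 0.1, the smallest that 3 against 3 can give). The high value was that of DMSO replicate 2, in which S100a8 stood at 321 CPM against 54.8 and 205 CPM in the other DMSO libraries. Of the 22 T and NK cell markers 8 were at 0 in all 6 libraries, and their sum was 9.96 to 13.5 CPM under DMSO and 6.68 to 8.89 CPM under RG6146. In bulk RNA, fewer cells of a type and less RNA per cell cannot be told apart.

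The response was broad and shallow on the side of the rises and deeper on the side of the falls. The edgeR quasi-likelihood test called 2863 genes, 26.0% of those tested, with 1375 higher (12.5%) and 1488 lower (13.5%). The median rise was 0.57 on the log2 scale, and the median fall was 0.75. Rises of less than 1.5-fold made up 51.9% of all rises, and falls of less than 1.5-fold made up 36.8% of all falls. Rises of over 2-fold were 2.24% of the tested genes and falls of over 2-fold 4.66%, and past 4-fold there were 39 rises and 107 falls. The 3 RG6146 libraries lay beyond all 3 DMSO libraries in one direction or the other for 40.9% of the tested genes. The genes that rose took 16.8% to 17.2% of all gene counts in the DMSO libraries and 20.7% to 21.4% in the RG6146 libraries, and the genes that fell took 8.01% to 8.30% and 4.96% to 5.20%. Library size scaling without TMM, which lowers the median of all genes by 0.11 on the log2 scale, called 883 higher and 2067 lower, 29.9% higher instead of 48.0%.

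**Figure D1:**
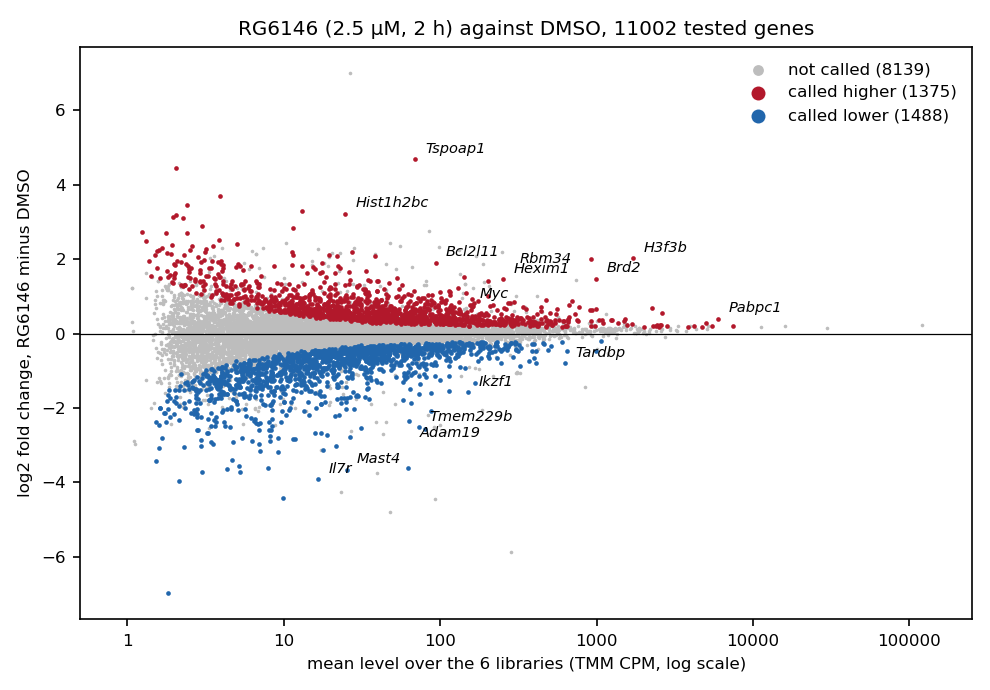
Log2 fold change of RG6146 against DMSO for each of the 11002 tested genes (vertical axis) against the mean level over the 6 libraries in TMM CPM (horizontal axis, log scale), with called rises in red, called falls in blue and other genes in grey. The strong falls, such as Il7r and Mast4, sit at low and middle levels, while the rises of H3f3b and Rbm34 (2.02 and 2.01) sit at much higher levels. The grey points with large fold changes are genes that were not called.

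A gene that was not called is not thereby stable. For 1366 genes, 12.4% of those tested, the whole 95% interval of the fold change lay within 0.32 of 0 on the log2 scale, and 11 of these were called all the same. A further 6784 genes were neither called nor held within that interval. Their median level was 12.7 CPM, against 97.3 CPM for the genes held within it, and the median gene of the whole table had an interval of 0.35 on the log2 scale to either side.

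Counted at any size, rises and falls sat at different levels of expression. Among protein-coding genes, the share that rose climbed from 7.11% to 12.1%, 15.5% and 20.7% over 4 groups of near-equal size from the lowest to the highest mean level, parted at 8.96, 23.2 and 60.2 CPM. The share that fell was 14.1%, 16.5%, 17.5% and 11.7%. Rises of over 2-fold went the other way, with 110, 47, 34 and 20 genes over the same groups. Falls of over 2-fold numbered 247, 124, 41 and 24. Small changes are called more readily at high counts, and the part of this in the climb was not tested. Long genes were called more often in either direction: among those spanning over 51587 bases of the genome 16.0% rose and 18.9% fell, and among those spanning up to 10292 bases 11.7% rose and 12.2% fell. Of 217 genes of a single exon 14.7% rose and 7.37% fell, and of 8944 genes of several exons 13.8% rose and 15.1% fell. Of 157 long intergenic RNAs 9.55% rose and 17.8% fell, and of 77 small nucleolar RNA genes 11.7% rose and 1.30% fell, beside 12.5% and 13.5% of all tested genes.

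Promoters rich in CpG dinucleotides belong mostly to broadly used genes, while CpG-poor promoters are frequent among genes of particular cell types. RefSeq windows from 250 bases before to 50 bases after the start (GRCm38.p6) were found for 7403 of 8911 tested protein-coding genes on the chromosomes used. Genes with at most 15 CpG per window fell more often than they rose: 405 of 1881 fell (21.5%) and 151 rose (8.03%). Above 30 CpG the order was reversed, with 228 of 1696 falling (13.4%) and 339 rising (19.99%). Rises of over 2-fold numbered 48 among the 1881 genes and 45 among the 1696, and falls of over 2-fold 189 and 51. The bases before the start are printed for a pair of genes that rose with many CpG, a pair that fell with few, and an exception of either kind, with each CpG in capitals, 5′ to 3′ on the strand of the gene.
Bcl2l11: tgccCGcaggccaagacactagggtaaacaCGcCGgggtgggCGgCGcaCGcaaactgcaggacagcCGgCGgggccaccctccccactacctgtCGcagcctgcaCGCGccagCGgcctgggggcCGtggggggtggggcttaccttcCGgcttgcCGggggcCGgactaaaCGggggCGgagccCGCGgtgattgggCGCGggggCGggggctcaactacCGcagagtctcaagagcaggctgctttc
Srsf2: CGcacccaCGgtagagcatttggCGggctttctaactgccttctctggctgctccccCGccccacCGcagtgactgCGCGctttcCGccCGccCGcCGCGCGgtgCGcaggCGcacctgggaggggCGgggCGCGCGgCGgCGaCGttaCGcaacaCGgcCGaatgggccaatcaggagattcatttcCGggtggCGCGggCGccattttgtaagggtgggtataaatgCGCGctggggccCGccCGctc
Fcrla: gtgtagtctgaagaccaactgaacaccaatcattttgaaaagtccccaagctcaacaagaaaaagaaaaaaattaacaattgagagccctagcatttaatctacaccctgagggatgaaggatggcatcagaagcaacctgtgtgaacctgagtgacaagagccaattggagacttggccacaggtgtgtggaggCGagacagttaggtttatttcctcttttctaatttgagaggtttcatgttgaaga
Inpp5d: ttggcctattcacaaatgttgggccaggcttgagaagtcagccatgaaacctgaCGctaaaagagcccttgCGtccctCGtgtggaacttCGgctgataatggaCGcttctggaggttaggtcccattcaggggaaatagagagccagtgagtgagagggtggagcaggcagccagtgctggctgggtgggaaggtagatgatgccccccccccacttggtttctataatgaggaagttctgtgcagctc
Mast4: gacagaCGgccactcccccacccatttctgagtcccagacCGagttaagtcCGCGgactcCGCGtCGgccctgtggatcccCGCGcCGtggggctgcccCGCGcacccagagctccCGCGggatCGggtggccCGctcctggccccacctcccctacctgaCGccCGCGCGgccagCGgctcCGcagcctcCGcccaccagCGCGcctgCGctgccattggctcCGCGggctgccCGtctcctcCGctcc
Txnrd1: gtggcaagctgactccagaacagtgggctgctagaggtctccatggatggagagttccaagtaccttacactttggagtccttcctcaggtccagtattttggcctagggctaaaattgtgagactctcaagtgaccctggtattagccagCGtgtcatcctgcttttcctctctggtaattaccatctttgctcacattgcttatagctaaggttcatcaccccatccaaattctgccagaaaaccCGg
The stretches of Bcl2l11 (chr2:128125788-128126037, plus strand) and Srsf2 (chr11:116853095-116853344, minus strand) hold 24 and 33 CpG, and both genes rose. Those of Fcrla (chr1:170927584-170927833, minus strand) and Inpp5d (chr1:87620062-87620311, plus strand) hold 1 and 5, and both genes fell. Mast4 (chr13:103334493-103334742, minus strand) fell although its stretch holds 30 CpG, and Txnrd1 (chr10:82833701-82833950, plus strand) rose although its stretch holds 2.

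The CpG-rich genes also had higher levels, with medians of 14.99, 22.3, 26.7 and 32.8 CPM over 4 groups from the fewest to the most CpG, parted at 15, 22 and 30 per window. For rises of any size the order held on either side of the median level. Among genes above it, the share that rose was 9.82%, 15.9%, 21.5% and 24.5% over the 4 groups, and the share that fell was 19.6%, 12.7%, 11.9% and 13.8%. Among genes below it, the share that rose was 6.88%, 8.09%, 12.8% and 13.6%, and the share that fell was 22.7%, 12.1%, 9.90% and 13.0%. The falls were most frequent in the CpG-poorest group, lowest in the third and higher again in the CpG-richest. Rises of over 2-fold did not climb steadily, with 48 of 1881, 31 of 1891, 53 of 1935 and 45 of 1696 genes over the 4 groups. They numbered 5, 12, 12 and 16 above the median level and 43, 19, 41 and 29 below it. The part that expression level, span and CpG content share in these differences was not tested. Fixed sequence motifs, searched on both strands, showed smaller contrasts. CCAAT was present in 44.4% of the windows of genes that rose, 32.9% of those of genes that fell and 39.8% of all tested windows, and TATAAA was present in 8.06%, 7.22% and 6.27%.

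**Figure D2:**
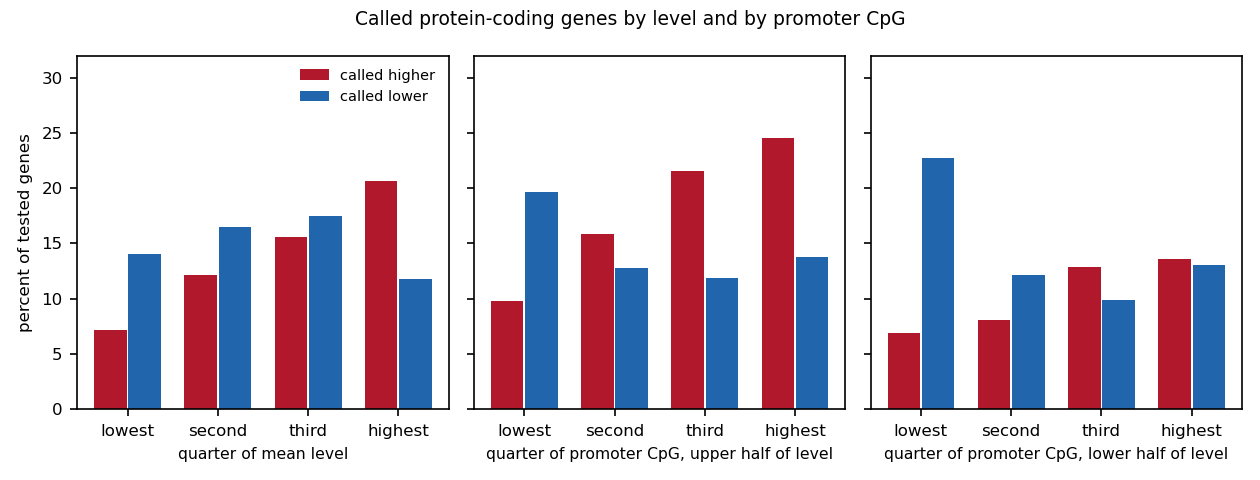
Percent of tested protein-coding genes that were called higher (red) or lower (blue) by RG6146 in 4 groups of the mean level (left) and in 4 groups of the CpG count per promoter window, for genes above the median level (middle) and below it (right). Rises of any size climb with level and with CpG in all 3 panels, and falls are most frequent in the CpG-poorest promoters. Rises of over 2-fold, not shown apart, numbered 110, 47, 34 and 20 over the groups of level. Over the groups of CpG they numbered 48, 31, 53 and 45.

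The lists described next were compiled by function, but with earlier results of these data known. Of the genes in a list 33.4% were called, against 24.9% of the genes in no list. In all, 62 symbols stand in more than 1 list. The counts of each list stand beside the shares of all tested genes, 12.5% higher and 13.5% lower. Of 34 tested BET and pause-release factors 14 rose, 3 fell and 17 were not called, with a median log2 fold change of 0.20. Polr2a, the gene of the catalytic subunit RPB1 of RNA polymerase II, was at 79.8, 78.2 and 77.9 CPM in the DMSO libraries and at 172, 185 and 189 CPM in the RG6146 libraries (1.21 ± 0.08). The PAF1 complex, which travels with the elongating polymerase, had 4 rises among 6 genes. Its subunit gene Ctr9 went from 68.6, 70.2 and 68.1 to 130.4, 128 and 144 CPM (0.96 ± 0.08), Paf1 from 28.9, 32.9 and 31.8 to 58.4, 58.99 and 69.1 CPM (0.998 ± 0.10), and Rtf1 rose by 0.49 ± 0.08. In each of these genes the treated libraries lay above all DMSO libraries.

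The P-TEFb cyclin gene Ccnt1 rose from 111, 103 and 102 to 159, 164 and 151 CPM (0.58 ± 0.08). Brd2, a gene of the BET family, rose. It measured 425, 581 and 562 CPM with DMSO and 1390.00, 1063 and 1903 CPM with RG6146 (1.47 ± 0.23, adjusted p = 0.00465), so its treated libraries were apart from the DMSO libraries but spread widely. Brd3, another member, was not called and was at 171, 139.9 and 163 CPM with DMSO and 153, 152 and 149.9 CPM with RG6146 (-0.06 ± 0.08, 95% interval -0.24 to 0.12).

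The falls in that list were Aff1, a scaffold of the super elongation complex (-0.51 ± 0.09), Ssrp1, a subunit of the histone chaperone FACT (-0.29 ± 0.08), and Nelfa, a subunit of the pausing factor NELF (-0.34 ± 0.11). The call of Ssrp1 was lost without RG6146 replicate 2 (adjusted p = 0.0504), and that of Nelfa was lost without RG6146 replicate 1 or 2 or DMSO replicate 1, 2 or 3 (adjusted p = 0.0541 to 0.147). Library size scaling gave 11 rises and 6 falls in the list, with a median of 0.10. Mediator and Integrator, large complexes that act with the polymerase at initiation and termination, had few calls: 2 rises and 3 falls among 46 genes. Med8 fell from 57.5, 45.3 and 53.5 to 31.8, 34.5 and 35.5 CPM (-0.62 ± 0.11), and the other falls were Med12 and Med24, beside rises of Ints8 and Ints11. The call of Med12 was lost without RG6146 replicate 2 (adjusted p = 0.0681), that of Med24 was lost without RG6146 replicate 1, 2 or 3 or DMSO replicate 2 or 3 (adjusted p = 0.0778 to 0.138), that of Ints8 was lost without RG6146 replicate 1 or DMSO replicate 2 or 3 (adjusted p = 0.114 to 0.137) and that of Ints11 was lost without RG6146 replicate 2 or 3 or DMSO replicate 2 or 3 (adjusted p = 0.0579 to 0.0903). With library size scaling there were 0 rises and 7 falls.

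Of 40 tested histone genes 17 rose and 0 fell, with a median of 0.37. H3f3b, which encodes the replication-independent histone H3.3, was at 725, 656 and 639 CPM in the DMSO libraries and 2787, 2825 and 2602 CPM in the RG6146 libraries (2.02 ± 0.06). It was also the largest gain in CPM among the genes that rose, with 2064 CPM added. Hist1h2bc, a gene of the main histone cluster, went from 5.996, 4.25 and 3.82 to 45.9, 48.9 and 39.9 CPM (3.22 ± 0.17), and the linker histone gene H1f0 from 10.1, 13.3 and 7.88 to 33.8, 40.8 and 31.2 CPM (1.77 ± 0.17). H2afx, whose product marks DNA breaks when phosphorylated, rose by 1.001 ± 0.08. For all 4 genes the groups were far apart.

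Slbp, which encodes the protein that binds the stem loop of replication-dependent histone transcripts, rose from 69.7, 72.8 and 78.1 to 168, 156 and 153 CPM (1.11 ± 0.08). Reads were primed at poly(A) tails, which most replication-dependent histone transcripts lack, so for the 31 genes of the Hist clusters, 11 of them called, tail addition and amount cannot be told apart. Histone genes are near-identical copies, and their reads may be shared among them. Their windows held a median of 12 CpG and 22 of 35 held at most 15, so as a whole this list had many rises and few CpG. Whether the members that rose were those with few CpG was not tested.

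Of 62 tested genes for enzymes that write and erase histone and DNA marks 6 rose, 15 fell and 41 were not called, with a median of -0.05. The class IIa deacetylase gene Hdac9 went from 23.8, 20.1 and 16.2 to 2.95, 2.52 and 2.94 CPM (-2.83 ± 0.27) and Hdac7 from 111, 101 and 108 to 43.4, 45.4 and 36.2 CPM (-1.35 ± 0.11). The NAD-dependent deacetylase gene Sirt1 was the strongest rise of the list, from 32.4, 31.2 and 35.1 to 80.6, 77.1 and 87.4 CPM (1.31 ± 0.09). Remodellers and corepressors were split, 9 rises and 11 falls among 42 genes. Zmynd8, a reader of acetylated histones, fell from 109, 113 and 110.1 to 33.4, 38.3 and 35.1 CPM (-1.64 ± 0.10), the corepressor gene Cbfa2t3 fell by 3.01, and the remodeller gene Chd7 fell by 0.82 on the log2 scale. The ATPase genes Chd4 (0.39 ± 0.08) and Ep400 (0.54 ± 0.08) and the corepressor gene Trim28 (0.44 ± 0.08) rose by less. With library size scaling the remodellers had 5 rises and 13 falls.

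**Figure D3:**
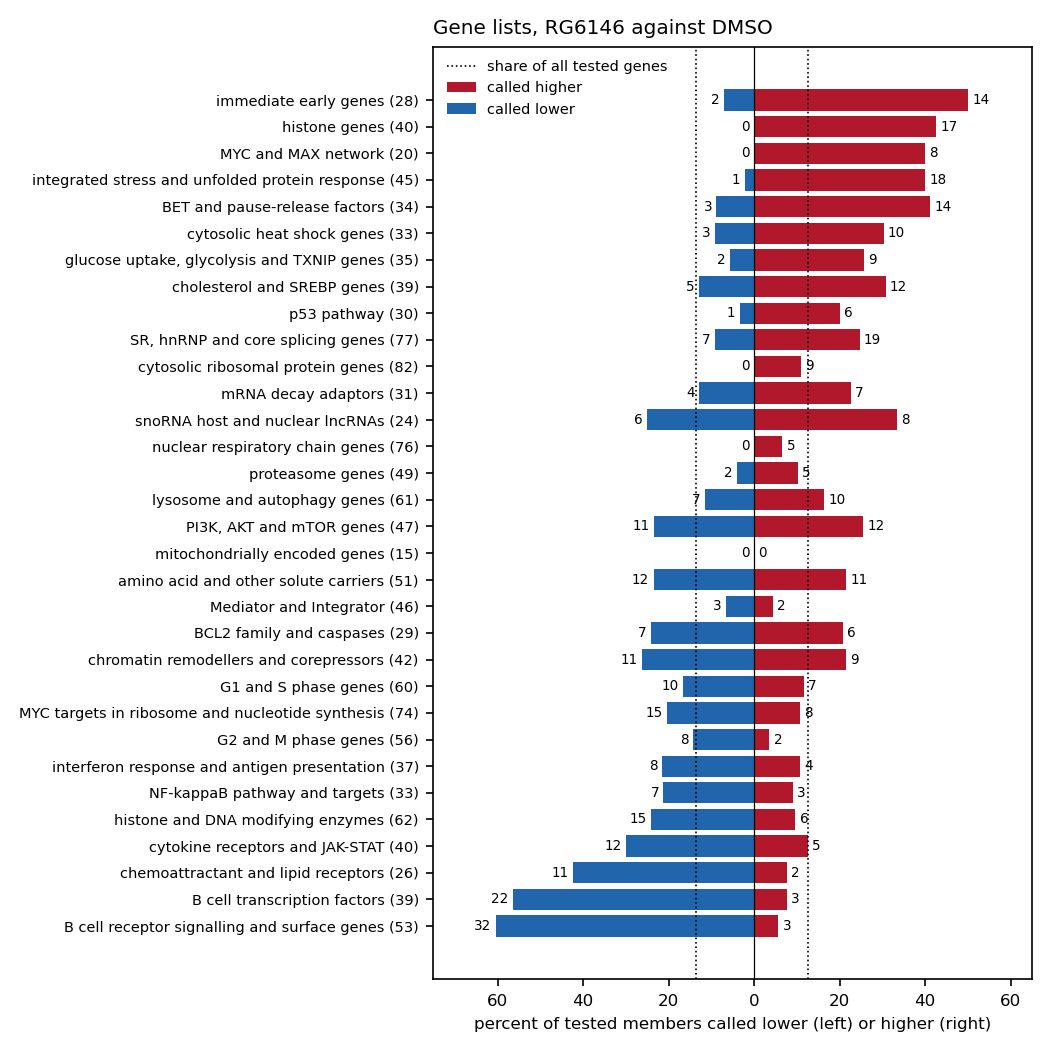
Percent of the tested members of the gene lists shown that were called lower (blue, left) or higher (red, right) by RG6146, with the number of members called beside each bar, the number tested in brackets and the shares of all tested genes as dotted lines. Immediate early, histone, MYC and MAX network and stress response genes lie at the top, and B cell receptor genes and B cell transcription factors lie at the bottom.

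Immediate early genes, which answer signals within minutes and without new protein synthesis, had the largest median of the lists, 0.77, with 14 rises and 2 falls among 28 tested genes. Jund, a subunit of the transcription factor AP-1, measured 71.2, 76.2 and 73.1 CPM with DMSO and 198, 183 and 252 CPM with RG6146 (1.52 ± 0.10). Jun went from 22.1, 18.4 and 24.1 to 58.4, 63.8 and 50.04 CPM (1.41 ± 0.13), Sertad1 from 6.18, 8.21 and 8.12 to 32.03, 22.7 and 27.6 CPM (1.88 ± 0.17), and Ier5 from 64.8, 62.9 and 62.3 to 138, 123 and 148 CPM (1.11 ± 0.10). No treated library of these 4 genes reached down to the DMSO range. The falls were Klf2, a transcription factor of quiescence and trafficking in lymphocytes (-0.68 ± 0.11), and Rgs2 (-0.27 ± 0.09), whose call was lost without RG6146 replicate 1 or 2 or DMSO replicate 2 or 3 (adjusted p = 0.0737 to 0.123).

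Among the mRNA decay adaptors, which include antiproliferative proteins, 7 of 31 genes rose and 4 fell. Btg1, which recruits the CCR4-NOT deadenylase, rose from 90.7, 89.5 and 97.4 to 180.4, 201 and 213 CPM (1.10 ± 0.08), and its relatives Tob1 (1.80 ± 0.24) and Btg2 (0.57 ± 0.08) rose too. Zfp36l2, which binds AU-rich elements of unstable transcripts, went from 84.1, 108 and 91.2 to 139, 146 and 142 CPM (0.59 ± 0.09). The falls were Pnrc2, Xrn1 and the CCR4-NOT subunit genes Cnot6 and Cnot6l, with log2 fold changes between -0.54 and -0.33. The call of Xrn1 was lost without RG6146 replicate 2 or DMSO replicate 2 (adjusted p = 0.0779 to 0.0804).

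Of 39 tested transcription factor genes of the B lineage 22 fell and 3 rose, with a median of -0.47. Zeb2, a repressor used at several steps of lymphoid development, went from 105, 103 and 98.6 to 26.4, 28.99 and 28.3 CPM (-1.88 ± 0.09). Ikzf1, which encodes Ikaros, went from 223, 248 and 202 to 78.8, 72.9 and 74.7 CPM (-1.57 ± 0.09). The octamer-binding factor genes Pou2f1 and Pou2f2 fell from 129.8, 130.3 and 136 to 44.8, 43.9 and 42.6 CPM (-1.59 ± 0.09) and from 241, 250.1 and 226 to 94.95, 95.3 and 94.2 CPM (-1.33 ± 0.07). The replicates of each group lay close together in all 4 genes, and the groups did not overlap, as was the case for 20.8% of all tested genes in the direction of a fall.

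Foxp1, a factor of early and germinal centre B cells, was the most abundant of those that fell, at 498, 532 and 527 CPM with DMSO and 295, 294 and 315 CPM with RG6146 (-0.78 ± 0.07). Myb, a driver of lymphoid progenitors that was picked out after its values were seen, went from 143, 142 and 140.4 to 34.5, 34.3 and 32.4 CPM (-2.07 ± 0.18, adjusted p = 3.0e-05). Mef2c (-1.251 ± 0.09) and Ebf1 (-0.64 ± 0.07) fell too. The rises were Bach1 (0.90 ± 0.17), Id3, an inhibitor of E proteins (0.59 ± 0.13), and Foxo1 (0.36 ± 0.10). The call of Foxo1 was lost without RG6146 replicate 2 or DMSO replicate 2 (adjusted p = 0.0684 to 0.089).

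Of 53 tested genes of the B cell receptor and its co-receptors 32 fell and 3 rose, with a median of -0.82. Inhibitory co-receptors were among the falls. Siglecg went from 51.7, 48.7 and 60.9 to 13.4, 18.1 and 16.1 CPM (-1.76 ± 0.13), Cd22 from 52.5, 41.6 and 38.2 to 13.6, 17.1 and 10.9 CPM (-1.68 ± 0.16), and Cd72 from 181, 198 and 185 to 88.4, 99.1 and 111 CPM (-0.92 ± 0.10). The highest treated library of each lay below the lowest DMSO library. Fcrla, an Fc receptor-like protein of the B lineage, fell from 175, 168 and 165 to 58.4, 63.8 and 52.98 CPM (-1.54 ± 0.09), and the adaptor gene Blnk, which links the receptor to phospholipase C, from 96.3, 91.5 and 91.7 to 39.3, 47.1 and 50.04 CPM (-1.03 ± 0.11).

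The receptor complex itself was split. Cd79b, a signalling chain, went from 89.2, 90.4 and 123 to 40.2, 49.7 and 47.3 CPM (-1.14 ± 0.12). Its partner Cd79a was at 41.8, 40.5 and 37.98 CPM with DMSO and 37.3, 36.6 and 34.6 CPM with RG6146 (-0.15 ± 0.10, 95% interval -0.36 to 0.06), and the heavy chain gene Ighm was at 404, 317 and 359 CPM with DMSO and 396, 430.3 and 365 CPM with RG6146 (0.14 ± 0.09, 95% interval -0.05 to 0.33). Neither of these was called, and the Ighm groups overlapped. The rises were the adaptor gene Grb2 (0.38 ± 0.08), the tetraspanin gene Cd81 (0.53 ± 0.14) and the heavy chain gene Ighd (1.01 ± 0.28). The call of Cd81 was lost without RG6146 replicate 1 or DMSO replicate 2 or 3 (adjusted p = 0.0512 to 0.0526), and that of Ighd was lost without RG6146 replicate 3 or DMSO replicate 1 or 2 (adjusted p = 0.0502 to 0.0557).

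The promoters of this list were poor in CpG, with a median of 6 per window and 29 of 36 windows holding at most 15. The sums of myeloid and of T and NK cell markers given above were lower under RG6146 as well. Stromal and endothelial markers summed to 134 to 147 CPM under DMSO and 107 to 114 CPM under RG6146, and of the 2 that were tested 1, Pecam1, fell. Erythroid markers summed to 11.8 to 13.0 CPM under DMSO and 5.21 to 11.9 CPM under RG6146, with overlapping groups (exact two-sided permutation p = 0.2). Most of the stromal and endothelial sum was Vim, which went from 104, 108 and 106 to 99.8, 96.3 and 96.8 CPM, also without TMM. Col3a1, Dcn, Lum and Pdgfra of that list were at 0 in all 6 libraries. The T and NK sum was mostly Cd2, from 8.19, 10.3 and 5.88 to 3.79, 5.32 and 4.99 CPM, with Cd3d, Cd4 and Trac at 0 throughout. Whether cells of the types marked by these lists were present and had a part in these falls was not tested. Without DMSO replicate 2, the library with the most myeloid transcripts, 31 genes of the receptor list and 21 of the transcription factors fell. By gene, 12 myeloid markers had enough counts to test, of which 0 fell and 1, Csf1r, rose (0.48 ± 0.15), a call that was lost without RG6146 replicate 1 or 3 or DMSO replicate 1 or 3 (adjusted p = 0.0616 to 0.146). By DESeq2, 3 of the 12 fell and 0 rose.

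A run of SLAM family genes on chromosome 1, singled out after their values were seen, all fell. Slamf6, Cd84, Cd48, Slamf7 and Ly9 encode receptors through which lymphocytes bind each other. Slamf6 measured 36.5, 32.9 and 35.8 CPM with DMSO and 9.09, 6.302 and 7.02 CPM with RG6146 (-2.22 ± 0.16), and Slamf7 was at 31.3, 20.1 and 30.6 CPM with DMSO and 4.32, 3.53 and 4.98 CPM with RG6146 (-2.67 ± 0.24). Ly9 went from 35.8, 31.4 and 32.5 to 19.99, 18.7 and 18.1 CPM (-0.81 ± 0.19), Cd84 from 10.5, 9.91 and 7.88 to 4.09, 4.03 and 3.17 CPM (-1.32 ± 0.26) and Cd48 from 9.56, 10.5 and 9.31 to 4.54, 3.78 and 4.08 CPM (-1.23 ± 0.27). In none of the 5 did a treated library reach the lowest DMSO library.

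Across the genome, 8020 pairs of adjacent tested protein-coding genes could be formed. Both members rose in 156 pairs (1.95%) and both fell in 202 (2.52%), while 339 pairs (4.23%) were split, one member up and the other down. Of the genes in these pairs 14.2% rose and 14.8% fell. Nothing is read from the pair counts, and the following pairs are examples. Among the pairs in which both fell were Il2ra and Il15ra, which encode receptor chains of interleukins 2 and 15 (-2.30 ± 0.55 and -2.59 ± 0.29), and Pecam1 and Milr1, which encode surface proteins of the immunoglobulin family (-1.69 ± 0.23 and -1.44 ± 0.24). The Wnt receptor gene Fzd5 (2.83 ± 0.27) and its neighbour Ccnyl1 (1.82 ± 0.28) rose together. These 3 pairs were chosen after their values were seen.

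Cytokine receptors and their signalling genes had 5 rises and 12 falls among 40 tested genes. Il7r, the receptor chain of interleukin 7 on which B cell precursors depend, went from 32.98, 34.6 and 25.3 to 1.36, 2.52 and 2.26 CPM (-3.91 ± 0.27), and the secreted factor gene Il16 from 33.7, 30.02 and 32.2 to 3.18, 3.53 and 4.302 CPM (-3.11 ± 0.20). Socs2, a feedback inhibitor of JAK-STAT signalling, fell from 167, 152 and 149.99 to 72.9, 71.3 and 69.3 CPM (-1.14 ± 0.08). The rises were Socs7 (0.75 ± 0.09), Socs4 (0.52 ± 0.12), Tgfbr1 (0.98 ± 0.19), Jak1 (0.29 ± 0.10) and Stat2 (0.71 ± 0.24). The call of Jak1 was lost without RG6146 replicate 1 or 2 or DMSO replicate 2 (adjusted p = 0.0518 to 0.171), and that of Stat2 was lost without RG6146 replicate 1 or 3 or DMSO replicate 1 or 2 (adjusted p = 0.0636 to 0.143).

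Among receptors and G proteins that guide lymphocytes through tissues, 11 of 26 tested genes fell and 2 rose, with a median of -0.62. Cysltr1, a receptor of cysteinyl leukotrienes, went from 52.8, 47.02 and 39.4 to 7.496, 7.56 and 5.21 CPM (-2.78 ± 0.18). Ccr7, which leads cells into lymph nodes, went from 17.4, 12.5 and 17.4 to 3.18, 4.03 and 4.08 CPM (-2.07 ± 0.25), and S1pr1, which leads them out along sphingosine 1-phosphate, from 25.1, 25.8 and 35.3 to 11.1, 5.04 and 7.92 CPM (-1.82 ± 0.22). Treated libraries of these genes were all below the DMSO libraries. S1pr4, a second receptor of that lipid, fell by 2.40 on the log2 scale beside its neighbour Gna15. The rises were the G protein genes Gnai2 (0.31 ± 0.07) and Gnai3 (0.52 ± 0.11), which couple to such receptors.

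Genes of PI3K, AKT and mTOR signalling moved in both directions, 12 up and 11 down among 47. The regulatory subunit gene Pik3r1 rose from 41.8, 39.7 and 39.6 to 82.5, 75.6 and 96.00 CPM (1.07 ± 0.11), and Sesn3, an inhibitor of mTORC1 under amino acid shortage, rose from 12.6, 11.9 and 11.2 to 29.5, 34.03 and 27.4 CPM (1.34 ± 0.14). The phosphatase genes Inppl1 and Inpp5d, whose products remove the 5-phosphate of PIP3, fell from 87.5, 86.1 and 79.8 to 40.2, 37.1 and 35.8 CPM (-1.16 ± 0.10) and from 68.01, 75.1 and 72.6 to 38.8, 41.1 and 40.98 CPM (-0.83 ± 0.10). The lymphoid catalytic subunit gene Pik3cd fell by 0.51 on the log2 scale. Regulators and enzymes of the pathway were thus found on both sides, and no gene given here had overlapping groups.

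Among genes of the BCL2 family, caspases and their inhibitors, 6 of 29 rose and 7 fell. Bcl2l11, the gene of the cell death activator BIM, measured 42.7, 37.7 and 37.7 CPM with DMSO and 147, 148 and 147 CPM with RG6146 (1.90 ± 0.08), with the treated libraries almost equal. The anti-apoptotic gene Bcl2 went from 129, 107 and 122 to 85.6, 85.2 and 87.2 CPM (-0.47 ± 0.09). Bmf, another pro-apoptotic member that like BIM holds only a BH3 domain, fell from 6.37, 9.63 and 5.97 to 2.27, 2.02 and 2.04 CPM (-1.76 ± 0.33), and the inhibitor of apoptosis gene Birc3 fell from 21.2, 18.1 and 20.5 to 9.09, 9.83 and 13.6 CPM (-0.88 ± 0.18). Pro-apoptotic members were therefore among the rises and among the falls. Diablo, which counters inhibitors of apoptosis, rose by 0.48 ± 0.11.

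Of 30 genes of the p53 pathway 6 rose, 1, Ccnd1, fell and 23 were not called, with a median of 0.11. The groups did not overlap for 11 genes in the direction of a rise and 9 of a fall, beside 20.1% and 20.8% of all tested genes. Not called were Cdkn1a (-1.02 ± 0.45) and Mdm2 (-0.28 ± 0.10), and also Bax (0.28 ± 0.17) and Pmaip1 (0.48 ± 0.19). These uncalled genes were chosen after their values were seen. Sesn2, a stress-induced inhibitor of mTORC1, went from 3.19, 2.27 and 3.58 to 6.59, 10.3 and 7.698 CPM (1.41 ± 0.27) and Rb1cc1, an autophagy gene, from 55.3, 39.4 and 44.7 to 76.8, 83.7 and 71.3 CPM (0.73 ± 0.12). Ccnd1, which encodes cyclin D1, went from 231, 256 and 243 to 161, 151 and 169 CPM (-0.60 ± 0.08), with the groups apart. With library size scaling the list had 6 rises and 5 falls.

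Transcripts counted for Myc rose. They were at 125, 113 and 103 CPM in the DMSO libraries and 199.9, 177 and 207 CPM in the RG6146 libraries (0.78 ± 0.11, adjusted p = 5.9e-05), and the lowest treated library lay above the highest DMSO library. Whether the reads came from the endogenous gene or from the transgene was not tested. In the MYC and MAX network 8 of 20 genes rose and 0 fell, among them Mxd1, a partner of MAX that represses MYC target sites, from 5.996, 3.97 and 5.02 to 13.4, 12.6 and 13.4 CPM (1.37 ± 0.20). The cofactor gene Trrap (0.68 ± 0.12) and Fbxw7 (0.46 ± 0.09), which targets MYC for degradation, rose as well. Library size scaling gave 7 rises and 2 falls in that list.

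Targets of MYC in ribosome and nucleotide synthesis were split, 8 rises and 15 falls among 74 genes, with a median of -0.02. Ppan, a factor of large subunit assembly, went from 137, 137 and 160.3 to 89.5, 91.5 and 77.4 CPM (-0.75 ± 0.09), and the folate carrier gene Slc19a1 from 60.7, 63.2 and 56.4 to 32.03, 37.8 and 38.7 CPM (-0.73 ± 0.10). Dkc1, which modifies ribosomal RNA, fell from 752, 805 and 689.8 to 521, 509.7 and 590.3 CPM (-0.47 ± 0.08). The initiation factor gene Eif4a1 rose from 440.1, 461 and 450.5 to 662, 660.5 and 625 CPM (0.53 ± 0.08), and Nop56 (0.37 ± 0.07) and Impdh2 (0.42 ± 0.08), a gene of guanine nucleotide synthesis, rose by less. Library size scaling gave 5 rises and 25 falls.

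Among 60 genes of G1 and S phase 7 rose and 10 fell, with a median of -0.09. The transcription factor gene E2f2 fell from 87.5, 81.00 and 92.4 to 57.02, 57.5 and 52.98 CPM (-0.64 ± 0.10), while Cdc6, a loader of replication origins, rose from 60.7, 61.2 and 70.7 to 89.3, 85.7 and 102 CPM (0.52 ± 0.09) and the ribonucleotide reductase gene Rrm2 from 86.2, 88.9 and 93.6 to 119, 121 and 123 CPM (0.43 ± 0.08). Cdk6, a kinase of G1 phase, had -0.65 ± 0.20, a call that was lost without RG6146 replicate 1 or 3 or DMSO replicate 1, 2 or 3 (adjusted p = 0.0542 to 0.107). In G2 and M phase 8 of 56 genes fell and 2, Birc5 and Cenpf, rose. The call of Birc5 was lost without RG6146 replicate 1 or 3 or DMSO replicate 1 or 3 (adjusted p = 0.0679 to 0.107), and that of Cenpf was lost without RG6146 replicate 1 or 2 or DMSO replicate 1 or 3 (adjusted p = 0.0721 to 0.161). Foxm1, a transcription factor of mitotic genes, went from 38.2, 41.6 and 40.1 to 25.2, 26.5 and 24.00 CPM (-0.66 ± 0.11). With library size scaling the falls were 18 in either list, and the rises were 4 in G1 and S phase and 0 in G2 and M phase.

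Of 45 tested genes of the integrated stress response and the unfolded protein response 18 rose, 1 fell and 26 were not called, with a median of 0.22. Sil1, an exchange factor of the endoplasmic reticulum chaperone BiP, went from 15.6, 12.7 and 15.3 to 62.02, 64.3 and 60.00 CPM (2.09 ± 0.11). Hspa5, which encodes BiP, measured 487, 485 and 494 CPM with DMSO and 922, 869.9 and 912 CPM with RG6146 (0.88 ± 0.06). The central factor gene Atf4 rose from 219, 189.8 and 202 to 312, 348 and 310.4 CPM (0.67 ± 0.08), and Mthfd2, a gene of mitochondrial folate metabolism, by 0.71 ± 0.08. Groups were apart in these 4 genes. The fall was Herpud1, a gene of endoplasmic reticulum-associated degradation (-0.37 ± 0.08). Among the genes not called were Ddit3, which encodes the stress factor CHOP (-0.01 ± 0.17), the asparagine synthetase gene Asns (0.03 ± 0.23) and Xbp1, a factor of the unfolded protein response (-0.30 ± 0.16). These 3 were chosen after their values were seen.

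Cytosolic heat shock genes had 10 rises and 3 falls among 33. The constitutive HSP70 gene Hspa8 rose from 1119, 1027 and 1169 to 1478, 1453 and 1320.03 CPM (0.36 ± 0.07), and the chaperone-linked ubiquitin ligase gene Stub1 by 0.71 ± 0.08. The falls were the co-chaperone genes Bag2 (-0.98 ± 0.12) and Dnajc7 (-0.50 ± 0.08), and Chordc1.

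Among lysosome and autophagy genes, 10 of 61 rose and 7 fell. The kinase gene Ulk1, which starts autophagy, went from 29.6, 25.8 and 27.5 to 83.6, 71.8 and 78.8 CPM (1.496 ± 0.10). Atg12 went from 26.6, 28.3 and 24.6 to 64.1, 65.04 and 52.8 CPM (1.19 ± 0.11) and the cargo receptor gene Sqstm1 from 39.2, 34.8 and 32.5 to 70.9, 79.2 and 66.1 CPM (1.02 ± 0.11). The treated libraries of these 3 genes lay above the DMSO libraries by a wide margin. Tfeb, a master regulator of lysosomal genes, fell from 22.7, 25.8 and 26.03 to 13.2, 11.6 and 15.2 CPM (-0.89 ± 0.16), and the lysosomal protease gene Ctss by 0.43 on the log2 scale.

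Sterol and fatty acid genes rose in 12 and fell in 5 of 39 cases, with a median of 0.30. Insig1, which retains the sterol sensor in the endoplasmic reticulum, went from 15.4, 14.4 and 12.7 to 35.7, 39.3 and 31.02 CPM (1.31 ± 0.15) and Hmgcs1, an early enzyme of cholesterol synthesis, from 171, 164 and 167 to 250.3, 231 and 224 CPM (0.49 ± 0.07). Falls included the fatty acid desaturase gene Scd1 (-0.78 ± 0.11) and the elongase gene Elovl6 (-0.85 ± 0.12), beside Insig2, Fdft1 and Srebf1. The call of Insig2 was lost without RG6146 replicate 3 or DMSO replicate 1 (adjusted p = 0.0656 to 0.0673), that of Fdft1 was lost without RG6146 replicate 1 or 2 or DMSO replicate 1 or 3 (adjusted p = 0.0649 to 0.163) and that of Srebf1 was lost without RG6146 replicate 1, 2 or 3 or DMSO replicate 1 or 3 (adjusted p = 0.0743 to 0.236). Among 35 genes of glucose uptake, glycolysis and the TXNIP system, 9 rose and 2 fell. Txnip, which restrains glucose uptake, rose from 45.9, 53.8 and 64.01 to 115, 89.7 and 130.4 CPM (1.03 ± 0.15), and Txnrd1 rose by 0.51 ± 0.07. Pfkfb3, which makes an activator of glycolysis, fell (-0.68 ± 0.13), as did Slc2a3 (-0.80 ± 0.23), whose call was lost without RG6146 replicate 1 or 2 or DMSO replicate 1 (adjusted p = 0.0551 to 0.0827).

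Housekeeping lists differed in how tightly they were measured. Of 82 tested ribosomal protein genes 9 rose and 0 fell, with a median of 0.11, and for 69 of them the 95% interval lay within 0.32 of 0. Rpl27a, among the most abundant, measured 4154, 4436 and 3933 CPM with DMSO and 4352, 4479 and 4690.3 CPM with RG6146 (0.11 ± 0.06, 95% interval -0.01 to 0.24). Rpl7a, the first of the rises by p, went from 749.8, 642 and 630.1 to 851, 858 and 856 CPM (0.34 ± 0.07). The rises depended on the scaling, with a single rise under library size scaling and 0 under scaling by the ERCC spike-ins. Over all genes, ERCC scaling called 1082, against 2863, with a median log2 fold change of 0.041, against 0.009. With the replicate number added as a term, ERCC scaling called 2604 genes, with a median of 0.035. Nuclear genes of the respiratory chain had 5 rises and 0 falls among 76, with Atp5g3 at 0.27 ± 0.06, and 39 of them lay within that interval. Library size scaling left 0 rises there and 1 fall.

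No mitochondrially encoded gene was called among 15 by edgeR or by DESeq2, and their median was 0.15. In edgeR 2 of the 15 had an unadjusted p below 0.05. Proteasome genes had 5 rises and 2 falls among 49, and 27 lay within that interval. The falls were Psmb8 (-0.28 ± 0.08) and Psmb10 (-0.45 ± 0.14), subunits of the immunoproteasome. Psmb9, another such subunit, was not called (0.06 ± 0.14). The call of Psmb8 was lost without RG6146 replicate 1 or DMSO replicate 3 (adjusted p = 0.0513 to 0.0877), and that of Psmb10 was lost without RG6146 replicate 1 or DMSO replicate 1 or 2 (adjusted p = 0.055 to 0.117).

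Of 77 tested splicing genes 19 rose and 7 fell. Of 12 genes for SR proteins and TRA2 8 rose and 0 fell, with a median of 0.25, while of 19 hnRNP genes 4 rose and 4 fell, with a median of 0.06. Whether the families differ was not tested, and library size scaling gave 8 rises and 11 falls in the whole splicing list. Srsf2 measured 553, 615 and 587 CPM with DMSO and 944, 958 and 972 CPM with RG6146 (0.71 ± 0.06), and Tra2b was at 235, 230.3 and 243 CPM with DMSO and 348, 347 and 314 CPM with RG6146 (0.51 ± 0.07). The helicase gene Ddx5 rose by 0.53 ± 0.06. Hnrnpr went down from 236, 225 and 215 to 142, 144 and 139 CPM (-0.67 ± 0.07) and Hnrnpd, also known as AUF1, from 372, 359.7 and 317 to 275, 257 and 245 CPM (-0.43 ± 0.08).

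Outside the splicing list, the RNA-binding protein gene Tardbp, which encodes TDP-43, lost more CPM than any other gene that fell, from 772, 802 and 804 to 445, 441 and 488 CPM (-0.79 ± 0.07). Rbm34, a nucleolar RNA-binding protein gene, gained 1107 CPM, from 331, 369.9 and 393 to 1456, 1364 and 1595 CPM (2.01 ± 0.08). Other highly expressed genes that fell were Bcl7a, a subunit gene of the SWI/SNF remodeller that is altered in B cell tumours (-0.88 ± 0.08), and Fubp1, which binds single-stranded DNA upstream of MYC (-0.74 ± 0.08). A splicing call cannot be made from any of these values, since 3′ reads carry no information on splice choice.

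NF-kappaB genes had 3 rises and 7 falls among 33. Tnfaip8, an apoptosis regulator, fell from 85.8, 91.5 and 95.1 to 41.6, 41.3 and 46.9 CPM (-1.07 ± 0.09) and Nfkb1, the p105 precursor gene, from 26.04, 23.2 and 23.6 to 13.9, 11.6 and 12.7 CPM (-0.93 ± 0.15). The rises were Bcl10 (0.63 ± 0.16), Chuk and Irak4. The call of Chuk was lost without DMSO replicate 2 (adjusted p = 0.0571), and that of Irak4 was lost without RG6146 replicate 1, 2 or 3 or DMSO replicate 1 or 3 (adjusted p = 0.0731 to 0.148). Interferon and antigen presentation genes had 4 rises and 8 falls among 37. Irf2, an antagonist of interferon-driven transcription, went from 78.3, 82.1 and 87.9 to 33.8, 34.5 and 38.3 CPM (-1.22 ± 0.10), while Irf3 rose from 8.43, 8.497 and 10.03 to 18.9, 16.6 and 14.3 CPM (0.88 ± 0.17). Cd47, which protects cells from phagocytosis, fell from 98.6, 95.2 and 94.6 to 56.8, 43.4 and 62.7 CPM (-0.82 ± 0.11). The other rises were Stat2, named above, and the class I genes H2-D1 (0.42 ± 0.11) and H2-K1 (0.30 ± 0.09), whose calls were lost without RG6146 replicate 1 or DMSO replicate 2 (adjusted p = 0.0551 to 0.0573) and lost without RG6146 replicate 2 or 3 or DMSO replicate 1 or 2 (adjusted p = 0.075 to 0.116). Without DMSO replicate 2 there were 1 rise and 9 falls.

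Amino acid and other solute carriers were evenly split, 11 up and 12 down among 51 genes. The glutamine carrier genes Slc38a1 and Slc38a2 moved apart: Slc38a2 rose from 153, 143 and 148 to 209.7, 206 and 232 CPM (0.54 ± 0.08), and Slc38a1 fell from 119.5, 115 and 108 to 76.6, 77.6 and 74.5 CPM (-0.58 ± 0.08). Neither carrier had overlapping groups.

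Among nuclear and snoRNA host RNAs, 8 of 24 rose and 6 fell. Malat1, a nuclear long non-coding RNA, went from 1689.8, 1643 and 1844 to 2982, 2773 and 2563 CPM (0.68 ± 0.07). Mir17hg, the host of the miR-17-92 cluster, went from 79.1, 81.00 and 82.6 to 122, 111 and 115 CPM (0.52 ± 0.08). Ftx, a non-coding gene of the X inactivation centre, fell from 20.98, 17.3 and 14.3 to 3.41, 4.03 and 5.66 CPM (-2.002 ± 0.25). The mature miRNAs are not read by this assay.

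**Figure D4:**
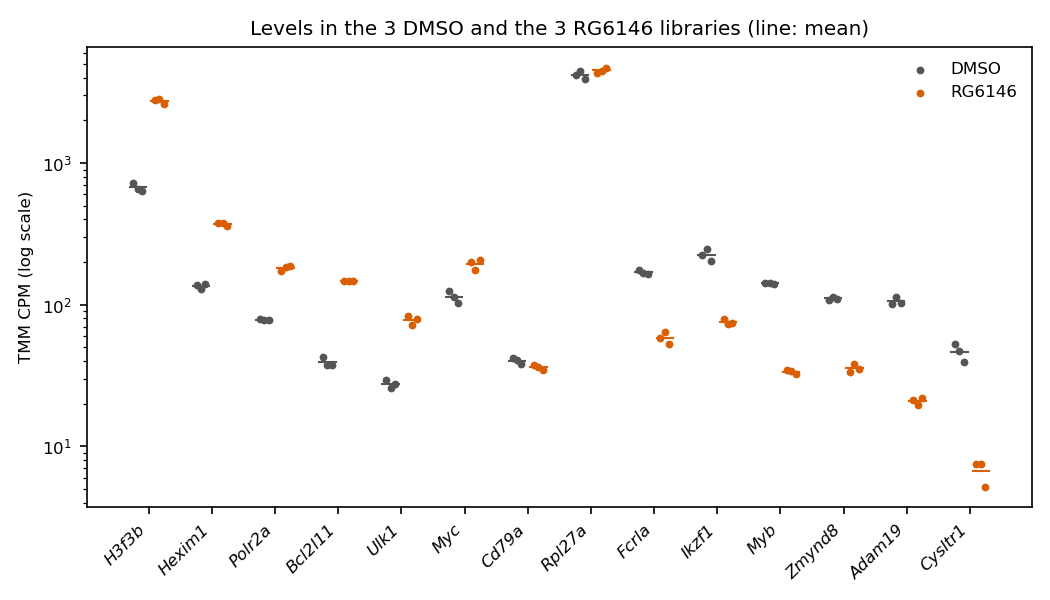
TMM CPM (vertical log axis) of 14 genes in each of the 3 DMSO libraries (grey) and the 3 RG6146 libraries (orange), with the group mean as a line. Treated libraries lie above the DMSO range from H3f3b to Myc, overlap it or lie close to it for Cd79a and Rpl27a, and lie below it from Fcrla to Cysltr1.

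The lists hold 1439 of the tested genes, and 2382 of the 2863 calls lay outside them. Tspoap1, whose product binds RIM proteins, was the largest called rise, from 4.68, 5.66 and 5.25 to 120.2, 131 and 149.7 CPM (4.69 ± 0.12). Cnnm4, a magnesium transporter gene, followed among genes of at least 10 CPM, from 2.06, 2.83 and 2.39 to 26.6, 25.2 and 18.8 CPM (3.28 ± 0.24). Further down that order were the transmembrane protein gene Cemip2 (1.85 ± 0.19), the sorting nexin gene Snx14 (1.80 ± 0.17) and the deubiquitinase gene Usp20 (1.74 ± 0.17). All their treated libraries exceeded the DMSO libraries.

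Falls outside the lists reached surface and signalling proteins of many kinds. Tmem229b went from 119.7, 119 and 137 to 20.9, 22.4 and 22.6 CPM (-2.51 ± 0.11), and the metalloprotease gene Adam19 from 101, 114 and 103 to 21.1, 19.7 and 21.96 CPM (-2.34 ± 0.10). The kinase gene Nuak1 fell by 2.08, the calcium channel gene Ryr2 by 2.19, and Tmem173, which encodes the cytosolic DNA sensor adaptor STING, by 2.18 on the log2 scale. Replicates of Tmem173 were at 22.5, 24.4 and 24.6 CPM with DMSO and 4.54, 5.04 and 6.11 CPM with RG6146, with no overlap.

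One called gene had no counts in a whole group. Klhl14, a B cell-expressed adaptor of ubiquitin ligases (chromosome 18, 21550377 to 21654718 on mm10), had 19, 15 and 13 counts in the DMSO libraries and 0 in each RG6146 library. Against a floor of 3 counts over the 3 treated libraries it was at least 15.3-fold lower (adjusted p = 0.000101).

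Several named genes share bases with a gene on the opposite strand, and the strand setting of the counting is not given in the sources used here, so their reads may not be separated. These include Brd2 with H2-DMa, Nelfa with Nsd2, Mast4 with Cd180, Il16 with Stard5, Zmynd8 with BC046401, Pou2f1 with Cd247 and Srsf2 with Mettl23. The value of Cd180, a member of the B cell receptor list that fell by 3.72 on the log2 scale, may thus hold reads of Mast4.

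RG6146 and JQ1 were given at unlike doses, 2.5 µM and 1 µM, so the compounds are not compared at a matched dose. Levels under JQ1 are given side by side for a few genes, and both comparisons with DMSO use the same 3 DMSO libraries. Hexim1 was at 392, 391 and 398 CPM under JQ1, Bcl2l11 at 148, 149.6 and 154 CPM, Il7r at 2.096, 1.42 and 1.82 CPM, and Myc at 128, 173 and 154 CPM. Between the JQ1 and RG6146 libraries themselves, edgeR called 1 of 11002 genes (0.00909%), the processed pseudogene Gm12693, and 425 genes had an unadjusted p below 0.05. The 95% interval of that difference lay within 0.32 of 0 on the log2 scale for 2862 genes.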

How the data were processed

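The deposited table holds raw read counts per gene, which the authors made from 3′ mRNA libraries. Per the submitters' processing notes, reads were handled with HISAT2 2.1.0, featureCounts, cutadapt 1.7, FastQC 0.11.5 and bcl2fastq 2.17.1.14, listed there in no order, and the build named is mm10. For the annotation release, strand and multimapping, the settings were not given in the sources used here. Symbols came from GENCODE M21 (42548 of 43629 gene rows matched), and the 92 ERCC spike-in rows stayed out of library sizes and tests.

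All 9 libraries were fitted with edgeR 4.0.16 in R 4.3.3 (quasi-likelihood, robust, TMM, group as the only term), so the JQ1 libraries share in the estimate of spread. Genes passed filterByExpr with a minimum count of 10, and every adjusted p is Benjamini-Hochberg over all tested genes unless DESeq2 1.42.0 is named. The script was tested on simulated data. The members and the 38 gene lists were chosen with earlier results of these data known. Promoter windows are RefSeq's, and those of 1 chromosome are not analysed here.

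Named are 10 fixed genes, the largest changes among called genes of at least 10 CPM and the largest CPM differences among called genes. Also named are list members with the smallest p or called against their list, called genes at 0 in a group, and genes differing between RG6146 and JQ1. Other genes named beside these, such as Myb and the SLAM genes, were chosen after their values were seen. Gene levels of same-numbered RG6146 and DMSO replicates did not deviate together, with correlations of 0.05, -0.07 and 0.06, so no pairing was used. ERCC counts, as a percent of gene counts, did follow the replicate number. They were 1.54, 1.20 and 1.14 under DMSO, 1.37, 1.19 and 0.98 under RG6146, and 1.39, 1.23 and 0.97 under JQ1. The replicates are cultures of a single clone, and p-values measure the spread between them. Other scalings, filters, tests, a replicate block and the omission of each library were tried. Results for some genes and for 1 of the lists are not reported here.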

Additional observations from a re-analysis of the deposited data

Results flagged for a closer look

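The processed pseudogene Gm12693 on chromosome 4 was the gene called between the 2 inhibitors, with a log2 fold change of 1.51 for RG6146 minus JQ1 (edgeR adjusted p = 0.0318). It stood at 13.2, 14.1 and 10.9 CPM under RG6146 and at 5.03, 3.79 and 4.43 CPM under JQ1. All RG6146 libraries lay above all JQ1 libraries. The DMSO libraries, at 8.24, 11.3 and 11.9 CPM, overlapped the RG6146 libraries (log2 fold change 0.29 against DMSO). Processed pseudogenes share reads with their parent genes, so the source of these counts is uncertain.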

How the results depend on the processing

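Against DMSO, 2863 genes were called. ERCC scaling gave 1082 (458 higher, 624 lower), glmTreat against a 1.5-fold change 532 (193 higher, 339 lower), and DESeq2 1902 (980 lower). Library size scaling gave 883 higher. The cause was not tested. Leaving out 1 library gave 2253 to 2463 calls. With the replicate number as a replicate block there were 2790 calls, 2712 of them shared with the fit without it, and with ERCC scaling and the block 2604. Between RG6146 and JQ1, where 1 gene was called, ERCC scaling gave 4, no filter 17, and glmTreat, the fit without robust moderation and the block 0 each in edgeR, with 30, 450 and 396 genes at an unadjusted p below 0.05. Leaving out 1 library gave 0 to 2, with 0 without DMSO replicate 2 or 3 (392 and 419 genes at an unadjusted p below 0.05). Genes within the narrow interval numbered 1366, against 0 with ERCC scaling and 894 with DESeq2. Genes that were neither called nor held within the interval had a median of 12.7 CPM, and the part of depth in this was not tested. Of the 192 called genes named here, 77 lost their call with ERCC scaling, 10 with ERCC scaling and the block, and 101 with glmTreat. With DESeq2 20 of the 192 lost their call, with library size scaling 13 and with the replicate block alone 4. Of the 192, 0 changed direction under any alternative. Brd3, not called, had a log2 fold change of 0.0020 without DMSO replicate 1 and -0.14 without DMSO replicate 2. Ddit3, not called, had 0.044 with ERCC scaling, 0.036 with ERCC scaling and the block, 0.0030 with the replicate block alone, and -0.17 to 0.12 with 1 library left out. Asns, not called, had -0.080 with library size scaling and -0.15 to 0.17 with 1 library left out.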

Other observations

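Among genes of at least 10 CPM, 101 had a fold change of over 2 against DMSO without being called, and 67 of these (66.3%) were pseudogenes, which made up 8.66% of all tested genes. The groups were apart in 28 of the 101. The 2 genes given here were chosen after their values were seen. The processed pseudogene Gm15198 stood at 1659, 5.66 and 16.2 CPM with DMSO and 14.1, 7.56 and 6.79 CPM with RG6146, and Gm6822 at 0.187, 0 and 0.955 and 155, 2.27 and 0 CPM. In both, a single library was far above the other 5. The source of these single high values was not tested.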
